A study of Mus musculus with 576 samples.

Results

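The cells described here are single cells from cultures of mouse fetal liver whose level of Mpo, the gene of myeloperoxidase, was 10 CPM or more (CPM is a gene's count per 1000000 counts of its cell). They numbered 107 of 563 kept cells. They were chosen by their level of Mpo alone, so that level is given as a description and is not tested. The cells came from C57/Bl6J embryos at day 14.5. Cells bearing CD41, CD16/32, Ly-6A/E, Ter119, CD11b, Ly-6G, CD45R or CD3e had been depleted, and the rest was sorted on CD117, CD71 and CD24 to enrich burst-forming units-erythroid, early progenitors of the red cell lineage. All groups shared this sort and a serum-free culture with erythropoietin (2 U/mL), stem cell factor (100 ng/mL) and IGF-1 (40 ng/mL). Control cultures had no further agent and dexamethasone cultures had 100 nM of this synthetic glucocorticoid, each for 24, 48 or 72 hours (days 1, 2 and 3). Each combination of day and treatment was 1 plate of 96 wells. Nothing in the labels says whether plates came from separate embryos or cultures, so p-values measure only the spread between plates, which may be technical.

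Myeloperoxidase makes hypochlorous acid in the primary (azurophil) granules of neutrophils. These granules also hold 3 serine proteases, neutrophil elastase (Elane), proteinase 3 (Prtn3) and cathepsin G (Ctsg). The genes are transcribed early in the lineage, in granulocyte and monocyte progenitors and promyelocytes, and are shut off as the cells mature. The fetal liver is the main blood-forming organ at this stage of gestation, and its progenitors of the red cell and of the granulocyte and monocyte lineages share surface proteins such as CD117.

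The 107 cells were spread unevenly over the plates. They made up 38 of 94 kept cells on control day 1 (40.4%, exact Clopper-Pearson 95% interval 30.4 to 51%), 1 of 96 on control day 2 (1.04%, 0.0264 to 5.67%) and 25 of 93 on control day 3 (26.9%, 18.2 to 37.1%). With dexamethasone they made up 14 of 94 on day 1 (14.9%, 8.39 to 23.7%), 12 of 92 on day 2 (13%, 6.93 to 21.7%) and 17 of 94 on day 3 (18.1%, 10.9 to 27.4%). The intervals cover counting error only. Kept cells held 66140 to 3757116 counts with a median of 1092431. No molecular identifiers were stated, so each count is a read. The other 456 cells carried the red cell programme that the sort aimed at. Gata1 and Klf1, the transcription factors of that programme, Epor, the erythropoietin receptor, and Car2, a carbonic anhydrase of red cells, were all at 10 CPM or more in 430 of them.

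**Figure D1:**
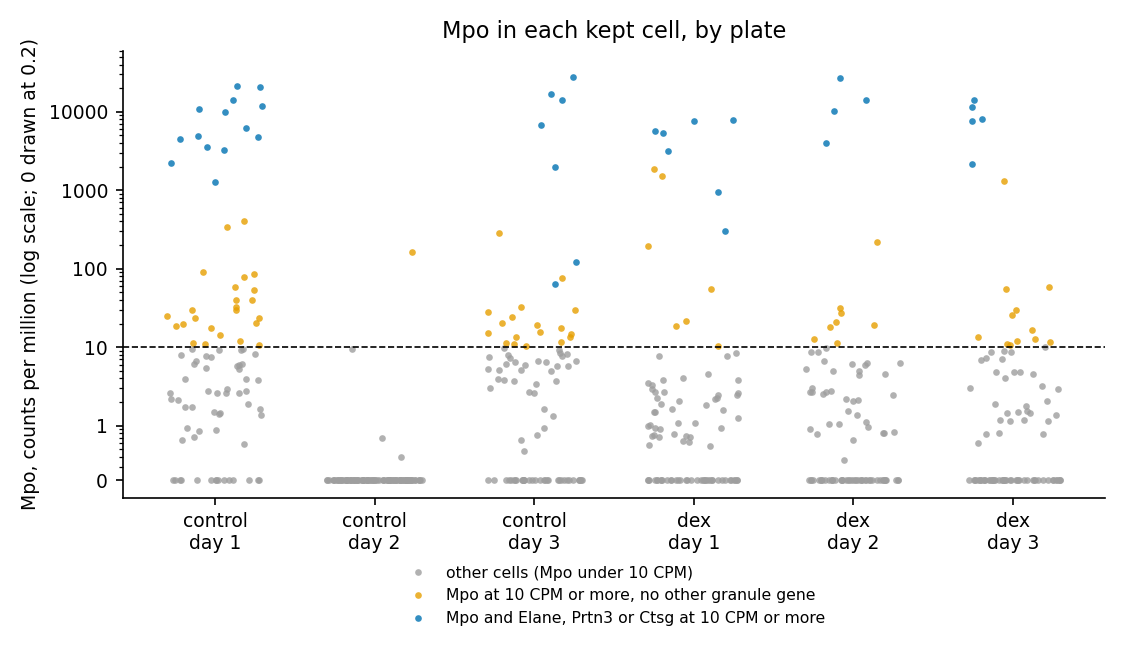
Mpo in each of the 563 kept cells, in CPM on a log scale, by plate. The dashed line is the threshold of 10 CPM. Cells that also carried Elane, Prtn3 or Ctsg at 10 CPM or more (blue, 37 cells) lay mostly above 1000 CPM, and the 70 cells at 10 CPM or more without any of the 3 (orange) lay mostly below 100 CPM.

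Mpo fell into a dim and a bright range. Among the 107 cells it ran from 10.3 to 27475 CPM with a median of 55.1 CPM. It was between 10 and 50 CPM in 52 cells, between 50 and 100 CPM in 10, between 100 and 1000 CPM in 9 and at 1000 CPM or more in 36. The 3 cells just inside the threshold had 10.34, 10.36 and 10.51 CPM, and the 3 just outside had 9.67, 9.79 and 9.90 CPM. The other granule proteases went with the bright range. None of the 52 cells under 50 CPM carried Elane, Prtn3 or Ctsg at 10 CPM or more, 1 of the 10 cells from 50 to 100 CPM did, 3 of 9 from 100 to 1000 CPM did, and 33 of the 36 bright cells did.

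Counted over all 107 cells, Prtn3 was at 10 CPM or more in 36, Ctsg in 28 and Elane in 17. Of the 456 other cells, 8 had Prtn3 at that level and 0 had Ctsg or Elane, which allows a share of up to 0.658% for counting error alone. All 3 genes were present in 17 cells, 2 of them in 10 cells and 1 in 10 cells. The name of a granulocyte and monocyte group therefore matched the marker genes in 37 of the 107 cells, called granule-gene cells below, and not in the other 70, called Mpo-only cells. Granule-gene cells numbered 14, 0 and 7 on control days 1, 2 and 3 and 7, 4 and 5 on dexamethasone days 1, 2 and 3. Their Mpo ran from 62.9 to 27475 CPM with a median of 6880.3 CPM, against 10.3 to 1851 CPM and a median of 21.3 CPM in Mpo-only cells.

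The 4 granule genes lie on 3 chromosomes of GRCm38. Mpo spans 87793581 to 87804413 on the forward strand of chromosome 11, and Ctsg spans 56099881 to 56102574 on the reverse strand of chromosome 14. Prtn3 (79874476 to 79883174) and Elane (79886247 to 79888215) are neighbours on the forward strand of chromosome 10. These spans are from the GENCODE annotation. Promoters of the 4 genes are shown because Elane, Prtn3 and Ctsg divided the Mpo cells. Each line gives the 250 bases before and 50 bases after the start that the RefSeq table on GRCm38.p6 uses, read 5′ to 3′ on the gene's strand. That start equals the GENCODE start for Ctsg and lies inside the GENCODE span for Mpo, Elane and Prtn3, so their windows do not begin 250 bases before the starts given above. Capitals mark GAGGAAG, letters bound by PU.1, the ETS family transcription factor encoded by Spi1. The windows are chr11:87793534-87793833 (forward strand) for Mpo, chr10:79886062-79886361 (forward strand) for Elane, chr10:79879417-79879716 (forward strand) for Prtn3 and chr14:56102525-56102824 (reverse strand) for Ctsg.
Mpo: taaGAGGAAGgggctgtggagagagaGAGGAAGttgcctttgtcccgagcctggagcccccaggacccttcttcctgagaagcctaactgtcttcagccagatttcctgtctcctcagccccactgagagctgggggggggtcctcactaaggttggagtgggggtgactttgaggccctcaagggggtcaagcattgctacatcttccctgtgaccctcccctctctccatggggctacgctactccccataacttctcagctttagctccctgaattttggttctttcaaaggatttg
Elane: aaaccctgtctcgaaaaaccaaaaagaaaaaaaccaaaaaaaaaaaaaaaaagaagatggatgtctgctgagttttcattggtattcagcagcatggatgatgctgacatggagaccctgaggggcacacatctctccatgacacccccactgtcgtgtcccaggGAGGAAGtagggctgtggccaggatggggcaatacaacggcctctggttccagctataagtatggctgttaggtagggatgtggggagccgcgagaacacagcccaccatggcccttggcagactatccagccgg
Prtn3: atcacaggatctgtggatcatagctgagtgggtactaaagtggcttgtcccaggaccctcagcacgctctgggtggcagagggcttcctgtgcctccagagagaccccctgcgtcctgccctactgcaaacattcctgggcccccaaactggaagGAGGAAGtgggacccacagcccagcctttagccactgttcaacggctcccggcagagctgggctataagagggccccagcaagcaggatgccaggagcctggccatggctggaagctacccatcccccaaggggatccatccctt
Ctsg: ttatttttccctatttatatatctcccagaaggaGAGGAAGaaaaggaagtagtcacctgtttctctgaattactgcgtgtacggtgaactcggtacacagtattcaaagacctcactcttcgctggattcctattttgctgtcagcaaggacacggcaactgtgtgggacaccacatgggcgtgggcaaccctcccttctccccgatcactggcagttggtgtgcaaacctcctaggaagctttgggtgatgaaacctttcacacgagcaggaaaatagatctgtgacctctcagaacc
GAGGAAG occurred at 2 places in the Mpo window and at 1 in each of the others. It was searched on both strands, and 13.6% of 32851 promoter windows of the same length held it. In the same 4 windows, 3 other motifs were searched on both strands. TTNNGCAA, letters bound by C/EBP factors, was in 0 of the 4 (10.8% of all windows), AGATAAG, letters bound by GATA factors, in 0 (3.04%), and TGTGGT, letters bound by RUNX factors, in the Ctsg window alone (16.8%). Of 20 listed primary granule genes, 16 matched the promoter table and 7 of these held the letters, against 0 of 6 matched globin genes. The 7 include the 4 genes shown above, so this count is not separate from theirs. A match is a description of these letters and not of a bound site.

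Dim Mpo moved with the index sequences that the wells shared. Each plate carried the same grid of 12 first and 8 second index sequences, and 95 index pairs were used on all 6 plates. A cell below 1000 CPM that shared 1 of its indexes with a bright cell of its plate was at 10 CPM or more in 70 of 310 cases (22.6%, 95% interval 18 to 27.6%). A cell that shared neither index with a bright cell was at that level in 1 of 217 cases (0.461%, 0.0117 to 2.54%). Any count of Mpo was present in 249 of the 310 and in 10 of the 217 cells. On the 5 plates with a bright cell, none of the 121 cells without a shared index reached 10 CPM, which allows a share of up to 2.48%. Control day 2 used the same index pairs, held no bright cell, and had any Mpo count in 4 of 96 cells. In a single dim cell, reads from another well of the plate and transcripts of the cell itself cannot be told apart.

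**Figure D2:**
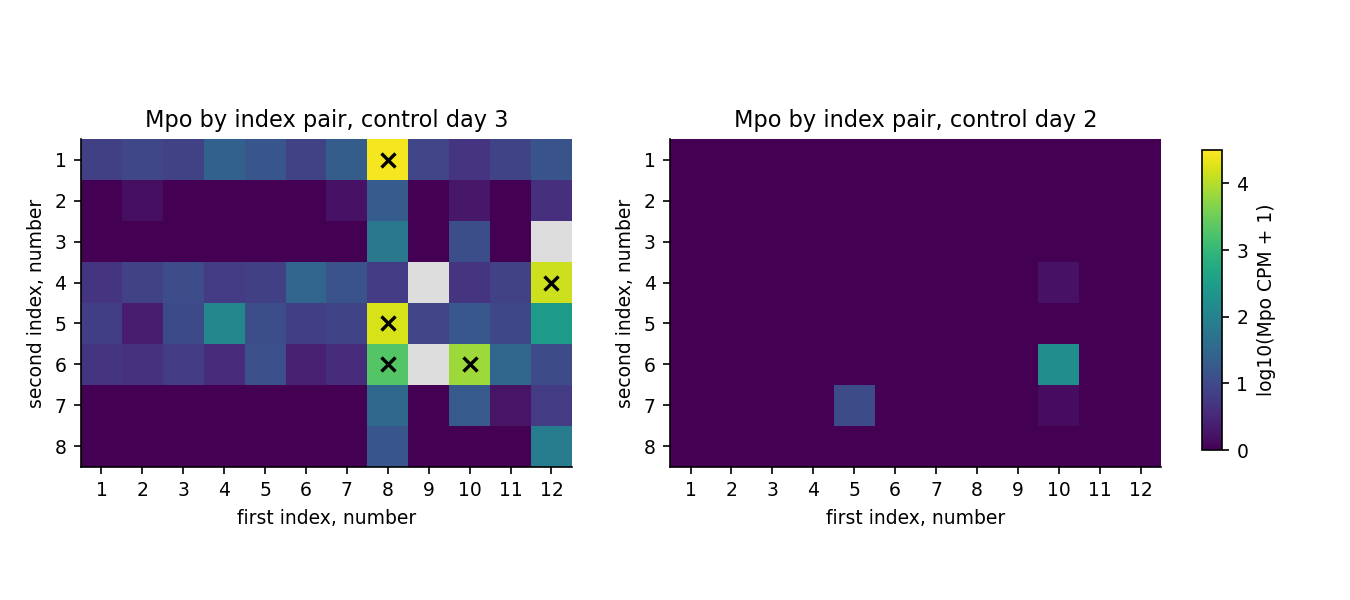
Mpo by index pair on control day 3 (left) and control day 2 (right), as log10 of CPM plus 1. Columns are the 12 first indexes, rows the 8 second indexes, crosses mark cells at 1000 CPM or more, and grey pairs have no kept cell. On control day 3 most wells in the row or column of a cross have a raised value, and on control day 2 only 4 cells have any count.

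The size of the dim signal was set beside that of its neighbours. In Mpo-only cells the Mpo count was a median of 0.0970% of the Mpo counts summed over the wells that shared an index, and it was at most 1% in 65 of 70 cells. The proportions of the granule genes are given as a description, since these genes defined the groups. Prtn3, Ctsg and Elane counts were 0.996%, 1.41% and 0.207% of the Mpo counts in Mpo-only cells, against 6.48%, 10.2% and 2.91% in granule-gene cells. The Mpo-only sums include 3 bright cells, with Mpo at 1312, 1529 and 1851 CPM. Prtn3 was at 1.12, 0 and 0 CPM in these, with no count of Ctsg or Elane. They lower the Mpo-only percentages, which are therefore not those of the dim cells alone. A rule on the index neighbours alone, a Mpo count over 1% of the neighbours' sum, kept 39 cells, of which 34 were granule-gene cells. This rule was chosen after the data were seen. Results are therefore given for all 107 cells, for the 37 granule-gene cells and for the 70 Mpo-only cells.

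Among the Mpo-only cells, 3 were bright and carried Cd34. Their Mpo was 1312, 1529 and 1851 CPM, and their level of this gene, a surface protein of blood stem and progenitor cells, was 1206, 1689 and 997 CPM. Flt3, the receptor of a cytokine that acts on lymphoid and myeloid progenitors, was 1.12, 227 and 1071 CPM in the same order. Gata1 was at most 4.07 CPM in them, while Car2 was 385, 149 and 8.13 CPM. The only cell of control day 2 had Mpo at 163 CPM, Cd34 at 378 CPM, Flt3 at 530 CPM and Ptprc, the leukocyte surface phosphatase CD45, at 296 CPM, with Gata1 at 2.61 CPM, Car2 at 538 CPM and Hbb-bs, an adult beta globin, at 30 CPM. These cells were described one by one after their values were seen.

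The erythroid genes split the 107 cells along the same line. All of Gata1, Klf1, Epor and Car2 were at 10 CPM or more in 3 of 37 granule-gene cells, in 51 of 70 Mpo-only cells and in 430 of 456 other cells. Those 3 granule-gene cells had the lowest depth of the 37, with 66140, 80188 and 140752 counts, against a median of 1092431 over kept cells. None of the 4 genes reached 100 CPM in 25 of 37 granule-gene cells, 2 of 70 Mpo-only cells and 3 of 456 other cells. The summed level of the 4 genes had a median of 48.6 CPM (4.07 to 1467) in granule-gene cells, 2209 CPM (18.6 to 24086) in Mpo-only cells and 2436 CPM (9.84 to 13351) in other cells. The summed level of Elane, Prtn3 and Ctsg, which partly defined the granule-gene cells, had medians of 929.8 CPM (23.1 to 13750.4), 1.43 CPM (0 to 15.5) and 0 CPM (0 to 126).

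**Figure D3:**
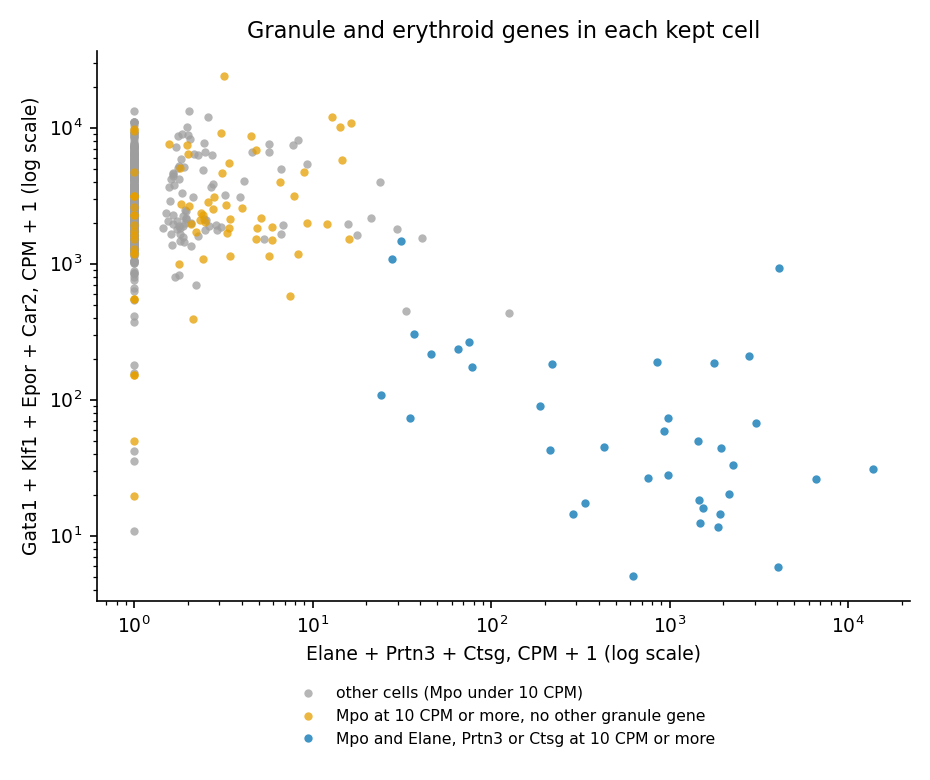
Summed level of Elane, Prtn3 and Ctsg against the summed level of Gata1, Klf1, Epor and Car2 in each of the 563 kept cells, both as CPM plus 1 on log scales. The granule-gene cells (blue) lie to the right and low, with an erythroid median of 48.6 CPM, and the Mpo-only cells (orange) lie among the other cells (grey), with medians of 2209 and 2436 CPM.

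Some cells stood apart within these groups. The shallowest kept cell, on control day 3 with 66140 counts, counted as a granule-gene cell with Mpo at 121 CPM, while its Car2 was 1239.8 CPM, its Hbb-bs 2207 CPM and its Itga2b 2298 CPM. Its Prtn3 and Ctsg were at 15.1 CPM each, the value of 1 read in that cell. Of the 8 other cells with Prtn3 at 10 CPM or more, 7 had Gata1 between 174 and 677 CPM, and the eighth had Gata2 at 432 CPM and Itga2b at 766 CPM. Among the 7, a control day 1 cell held the megakaryocyte markers Pf4 at 4703 CPM and Itga2b at 4200 CPM, with Klf1 at 0 CPM.

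Genes were then compared between the Mpo cells and the other cells of the same plate. The question is what else the cells with Mpo expressed. Counts were summed per plate over the cells of each kind, giving 10 sums on 5 plates, since control day 2 had too few cells. In a sum, fewer cells that express a gene and less RNA of it per cell cannot be told apart. Over the cells at 10 CPM or more, edgeR's quasi-likelihood test with Benjamini-Hochberg adjustment called 40 of 14920 genes higher (0.268%) and 4 lower (0.0268%). Without control day 1, control day 3, dexamethasone day 1, day 2 or day 3 it called 13, 52, 14, 25 and 24 genes. For the granule-gene cells alone it called 404 of 13799 genes higher (2.93%) and 528 lower (3.83%). The same test on the Mpo-only cells called 0 of 14188 genes, with 915 at an unadjusted p under 0.05.

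The calls for the granule-gene cells depended on single plates: 228 genes were called without control day 1, 661 without control day 3, and 368, 257 and 169 without dexamethasone days 1, 2 and 3. Of the 44 genes called over all 107 cells, 37 (84.1%) were among the 932 called for the granule-gene cells (3.97% of those). Both comparisons share the other cells as their reference, and the granule-gene cells are part of the 107. The index rule called 922 genes, and 780 of them were shared with the granule-gene cells. Of the 39 cells under that rule, 34 were granule-gene cells, with the same reference. The shared calls follow in large part from shared cells, so they are a description and not separate evidence. Mpo was left out of all these tests, and Elane, Prtn3 and Ctsg were left out of the test on granule-gene cells because they chose them. The median log2 fold change over all genes tested was -0.13 for the 107 cells and -0.31 for the granule-gene cells.

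The list of 20 primary granule genes was higher over its tested members. For the 107 cells, 6 of 18 tested were called higher and none lower, with a median log2 fold change of 5.81. For the granule-gene cells, 10 of 15 tested were called higher and none lower, with a median of 6.64. A gene that passed the filter on low counts through the granule-gene cells alone had to differ, so counts over the tested members of a list are a description. Values below are CPM of the counts summed per plate, in the order control day 1, control day 3, then dexamethasone days 1, 2 and 3, and fold changes are for granule-gene cells against other cells unless stated.

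Among the granule genes, the proteases themselves were almost absent from other cells. Ctsg over all 107 cells stood at 155, 709, 148, 369 and 109 CPM, against 0.0680 to 0.596 CPM in other cells, so the plate sums did not overlap. Elane stood at 45.8, 206, 3.1, 158 and 11.3 CPM over the 107 cells and at 0 to 0.187 CPM in other cells. The Elane sum was low on the dexamethasone plates of days 1 and 3 and high on the other 3 plates. Single cells weighed on it. The highest granule-gene cell of each plate had Elane at 760, 3647, 27.4, 2011 and 140 CPM. The medians of these cells were 8.47, 70.7, 0, 12 and 0 CPM. Prtn3 stood at 147, 319.7, 203, 223 and 143 CPM against 0.0705 to 1.88 CPM.

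Other genes of the granule and its cells followed. Plac8, a small cysteine-rich protein of myeloid cells, stood at 211, 752, 248, 355 and 497 CPM in granule-gene cells, 11.7, 1.34, 76.2, 0.116 and 1.01 CPM in Mpo-only cells and 0.123, 0.187, 1.18, 0.101 and 0.0963 CPM in other cells. It was at 10 CPM or more in 34 of 37 granule-gene cells, 6 of 70 Mpo-only cells and 2 of 456 other cells. Plac8 rose (log2 fold change 10.82 (SE 0.93), edgeR adjusted p = 0.00231). Serpinb1a, an inhibitor of neutrophil serine proteases, stood at 184, 825, 191, 91.2 and 176 CPM against 0.0702, 0.187, 1.35, 11.6 and 1.44 CPM in other cells, with no overlap (log2 fold change 7.83 (SE 1.59), edgeR adjusted p = 0.0363). Cst7, the protease inhibitor cystatin F, stood at 144, 205, 202, 247 and 255 CPM against 15.3, 7.15, 23.9, 12 and 19.1 CPM and also rose (log2 fold change 3.78 (SE 0.33), edgeR adjusted p = 0.00257).

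Ms4a3, a membrane protein of granulocyte and monocyte progenitors, varied with the plate. It stood at 71.1, 797, 18.7, 214 and 91.5 CPM against 0.0680 to 0.409 CPM in other cells, high on control day 3 and low on dexamethasone day 1 (log2 fold change 9.34 (SE 0.81), edgeR adjusted p = 0.00240). Srgn, the proteoglycan serglycin that holds proteases in granules, was present in all groups. It stood at 294, 1071, 502, 379 and 658 CPM in granule-gene cells and 62.2, 88.4, 131, 303 and 187 CPM in other cells, higher on each plate (log2 fold change 1.91 (SE 0.42), edgeR adjusted p = 0.0460). Ctsc, the enzyme that activates the granule proteases, stood at 165, 371, 131, 126 and 339 CPM against 94.3, 49.2, 118, 201 and 116 CPM and was higher on 4 of 5 plates without passing the test (log2 fold change 0.86 (SE 0.50), edgeR adjusted p = 0.348).

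Most genes of later granules were present in few cells. Only 2 of 16 listed genes of secondary and tertiary granules passed the filter on low counts for granule-gene cells. Of these S100a8, part of the calprotectin of mature neutrophils, rose, at 2.48, 715, 0, 117 and 35 CPM against 0 to 0.325 CPM in other cells (log2 fold change 10.17 (SE 1.64), edgeR adjusted p = 0.0258). It was at 10 CPM or more in 6 of 37 granule-gene cells, all of them with Elane, Prtn3 and Ctsg together. Ngp, neutrophilic granule protein, was at that level in 2 of 37 cells, Ltf, lactoferrin, in 1, Camp, cathelicidin, in 1 and Mmp8, neutrophil collagenase, in 4. Hdc, histidine decarboxylase, which mast cells and basophils also carry, was the other gene tested and was at that level in 18 of 37 cells (log2 fold change 3.67 (SE 3.13), edgeR adjusted p = 0.523). A single control day 3 cell held Ngp at 19063 CPM, S100a8 at 3066 CPM, Lyz2 at 14381 CPM and Anxa1 at 13612 CPM.

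Receptors and surface proteins of myeloid cells were the next group. Of 22 tested genes, 9 were called higher and none lower in granule-gene cells, with a median log2 fold change of 5.51. Csf3r, the receptor of granulocyte colony-stimulating factor (chromosome 4, 126024550 to 126044440), stood at 129, 139, 56.7, 126 and 86.8 CPM. In other cells it was at most 0.0292 CPM, with no count on 2 of the 5 plates, so no fold is given. It was at 10 CPM or more in 24 of 37 granule-gene cells, 2 of 70 Mpo-only cells and no other cell (edgeR adjusted p = 0.000745). Clec12a, an inhibitory lectin receptor of myeloid cells, stood at 34.6, 667, 18.1, 71.2 and 107 CPM against at most 0.117 CPM, highest on control day 3.

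The genes of the proteins used for depletion and sorting were checked in the same cells. Fcgr3 and Fcgr2b encode the CD16/32 receptors that the depletion targeted before culture. Fcgr3 stood at 61.7, 464, 38.6, 65 and 165 CPM in granule-gene cells against 1.35, 0.140, 0.486, 6.25 and 2.85 CPM in other cells, and it rose (log2 fold change 6.02 (SE 1.17), edgeR adjusted p = 0.0321). Fcgr2b stood at 126, 281, 98, 90.1 and 116 CPM against 0.0878, 0.0468, 0.0875, 0.382 and 4.75 CPM and also rose (log2 fold change 9.02 (SE 1.36), edgeR adjusted p = 0.0159). RNA of both was thus present after culture in cells of a population depleted on their proteins. Of the other targets, Itgam (CD11b) was at 10 CPM or more in 7 of 37 granule-gene cells, Ly6g in 1, Ly6a in 1, Cd3e in 0 and Itga2b (CD41) in 12, against 256 of 456 other cells for Itga2b. The 0 of 37 cells for Cd3e allows a share of up to 8.11% of cells at that level.

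Kit, which encodes the sorted CD117, did not separate the groups. It stood at 519.9, 164, 346, 408 and 315 CPM in granule-gene cells and 273, 43, 521, 773 and 283 CPM in other cells, higher in granule-gene cells on 3 of 5 plates (log2 fold change 0.21 (SE 0.42), edgeR adjusted p = 0.797). Tfrc, the transferrin receptor CD71, stood at 319, 542, 471, 682 and 369 CPM against 1618, 5184, 813, 1464 and 1683 CPM and fell (log2 fold change -2.00 (SE 0.38), edgeR adjusted p = 0.0295). Cd24a, the third sorted protein, stood at 103, 205, 155, 52.9 and 93.2 CPM against 743, 4212, 897, 1312 and 2866 CPM and fell (log2 fold change -3.94 (SE 0.43), edgeR adjusted p = 0.00551). Both were lower on every plate. Cd34 (chromosome 1) stood at 1052, 314, 801, 480.4 and 889 CPM against 28, 0.339, 8.53, 2.32 and 0.180 CPM and rose (log2 fold change 7.98 (SE 1.21), edgeR adjusted p = 0.0160), and 34 of 37 granule-gene cells had it at 10 CPM or more. Ptprc stood at 150.1, 305, 152, 228 and 219 CPM against 5.36, 0.0585, 13.3, 14.2 and 5.01 CPM with no overlap, while its test missed the threshold (log2 fold change 5.14 (SE 1.19), edgeR adjusted p = 0.0515).

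**Figure D4:**
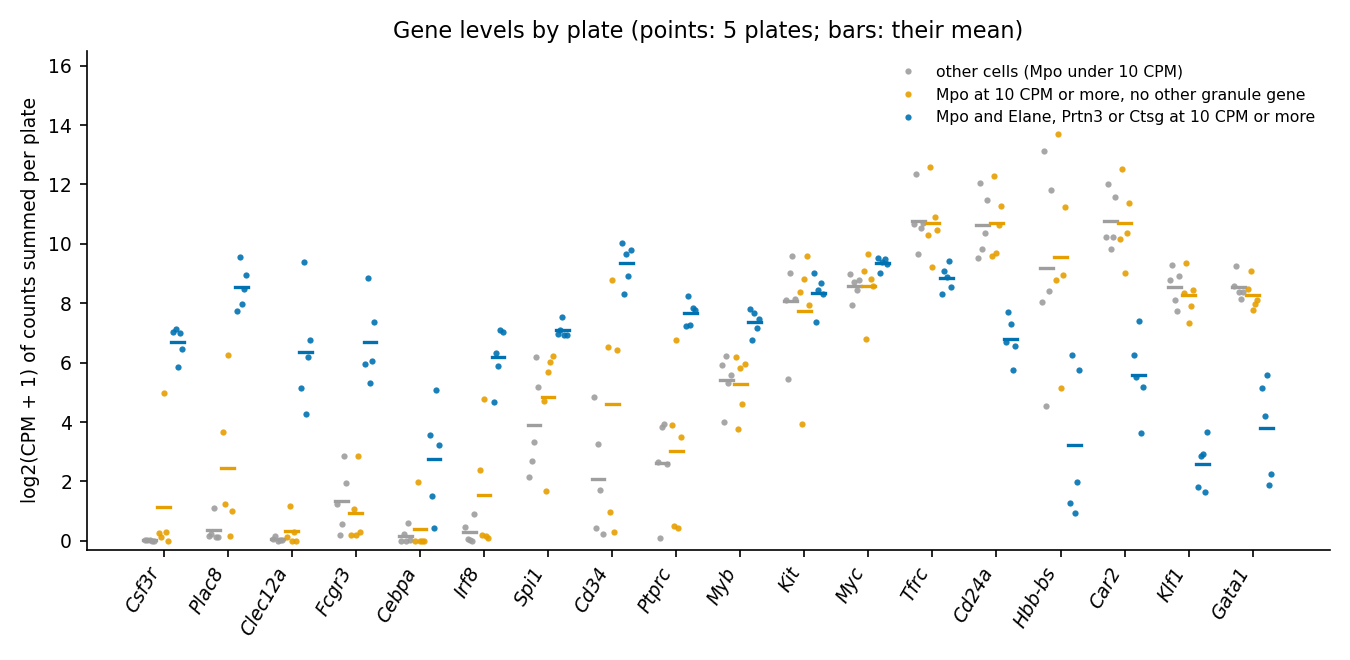
Levels of 18 genes as log2 of CPM plus 1 of the counts summed per plate. Points are 5 plates and bars their mean, for other cells (grey), Mpo-only cells (orange) and granule-gene cells (blue). By their means, granule-gene cells lie above both other groups for Csf3r to Myb on the left, near them for Kit and Myc, and below them for Tfrc to Gata1 on the right.

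Transcription factors of the myeloid lineage were higher in part. In granule-gene cells 5 of 11 tested were called higher and none lower, with a median of 2.95, and over the 107 cells 0 of 12 were called. Irf8, which directs monocyte and dendritic cell fate, stood at 24.4, 79.4, 58.7, 135 and 131 CPM against 0 to 0.878 CPM and rose (log2 fold change 9.58 (SE 1.59), edgeR adjusted p = 0.0207). Cebpa, which directs granulocyte and monocyte progenitors, was low throughout, at 10.7, 1.88, 0.362, 33.2 and 8.28 CPM against 0 to 0.513 CPM (log2 fold change 7.07 (SE 1.58), edgeR adjusted p = 0.0473). Spi1, which encodes PU.1, stood at 124, 136, 184, 121 and 121 CPM against 3.44, 5.49, 9.09, 71.8 and 35.1 CPM. It was higher on each plate, least so on dexamethasone day 2, and it missed the threshold (log2 fold change 3.34 (SE 0.79), edgeR adjusted p = 0.0543).

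Factors that early progenitors share were moderately higher. Myb stood at 224, 107, 204, 143 and 178 CPM against 59.1, 15.1, 73.7, 39.1 and 46.8 CPM and rose (log2 fold change 1.93 (SE 0.23), edgeR adjusted p = 0.00847). Etv6 stood at 161, 73.1, 183, 210.1 and 139 CPM against 51.9, 9.85, 56.3, 51.7 and 39.3 CPM (log2 fold change 1.94 (SE 0.24), edgeR adjusted p = 0.00986), and Runx1 at 168, 143, 292, 196 and 232 CPM against 121, 88, 93.4, 91.9 and 65.9 CPM (log2 fold change 1.08 (SE 0.24), edgeR adjusted p = 0.0483). Both rose and were higher on each plate. Of 21 tested early progenitor genes, 5 were called higher and none lower, with a median of 2.44. Angpt1, a ligand of the Tek receptor made by stem and progenitor cells, stood at 254, 24.3, 165, 209 and 242 CPM against 13.9, 0.363, 29.9, 19.2 and 0.409 CPM (log2 fold change 4.69 (SE 1.05), edgeR adjusted p = 0.0465), lowest on control day 3 in both groups.

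Signalling genes of leukocytes were higher in part. Of 16 tested, 5 were called higher and none lower, with a median of 2.73. Lcp1, the actin-bundling protein L-plastin, stood at 964, 1822, 857, 1288 and 1028 CPM against 64, 45.3, 59.5, 165 and 76.7 CPM and rose (log2 fold change 3.88 (SE 0.33), edgeR adjusted p = 0.00231). Coro1a, the actin regulator coronin 1A, stood at 911, 1690.2, 874, 887 and 1329 CPM against 50.6, 5.92, 102, 128 and 132 CPM and rose (log2 fold change 3.95 (SE 0.81), edgeR adjusted p = 0.0366). All 37 granule-gene cells had Lcp1 and Coro1a at 10 CPM or more, against 170 and 161 of 456 other cells. Of the NADPH oxidase, the enzyme that feeds peroxide to myeloperoxidase, 1 of 5 tested genes was called. Ncf1, its p47phox subunit, stood at 156, 415, 207, 333 and 422 CPM against 8.96, 0.0936, 1.33, 14.5 and 4.99 CPM (log2 fold change 6.32 (SE 1.21), edgeR adjusted p = 0.0306).

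Of 9 tested monocyte and macrophage genes, 3 were called higher. Psap, a lysosomal protein precursor that most cell types carry, was at 10 CPM or more in 33 of 37 granule-gene cells and 59 of 70 Mpo-only cells, and the macrophage gene Cd68 was at that level in 12 and 18. F13a1, the coagulation factor XIII subunit made by monocytes, stood at 14.4, 18.9, 22.5, 146 and 1740.1 CPM against 0, 0, 0.836, 0.936 and 20.2 CPM (log2 fold change 7.02 (SE 0.93), edgeR adjusted p = 0.0118). A single cell of dexamethasone day 3 with F13a1 at 7356 CPM, Lyz2 at 4269.8 CPM, Ly6c2 at 2005 CPM and Csf1r at 816 CPM made nearly all of the dexamethasone day 3 value. F13a1 was at 10 CPM or more in 7 of 37 granule-gene cells. Csf1r, the receptor of macrophage colony-stimulating factor, was at that level in 12 of 37 and stood at 33.5, 49.8, 0, 93.6 and 251 CPM, with no count on dexamethasone day 1 (log2 fold change 3.60 (SE 1.39), edgeR adjusted p = 0.171). Lyz2, lysozyme of myeloid cells, stood at 61.5, 2759.8, 20.1, 19.7 and 1057 CPM against 2.25, 0.456, 0.787, 0.322 and 7.05 CPM, high on both day 3 plates, and rose (log2 fold change 6.44 (SE 1.26), edgeR adjusted p = 0.0322). Few cells weighed on the day 3 values, 2 of control at 14381 and 6288 CPM and 1 of dexamethasone at 4269.8 CPM. The medians of granule-gene cells on these plates were 195 and 116 CPM.

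The rule for naming genes, which took the largest called differences with the same sign on all plates, also gave genes outside these lists. Lbp, which encodes the lipopolysaccharide-binding protein, stood at 47.7, 102, 77.4, 20.5 and 58.4 CPM in granule-gene cells against at most 0.0176 CPM in other cells, and 21 of 37 had it at 10 CPM or more. Mtus1 stood at 79.6, 224, 48.7, 157 and 162 CPM against 0 to 0.0936 CPM, and the uncharacterised BC035044 at 159, 148, 348, 149 and 236 CPM against 0 to 0.214 CPM. These 3 genes were called higher in both comparisons. Fut7, a fucosyltransferase of leukocytes, stood at 31.9, 1.78, 40.6, 17.8 and 43 CPM against 0 to 0.0361 CPM and rose in granule-gene cells. Fitted fold changes of these genes depend on the prior count, because other cells had few or no reads of them.

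The red cell programme was low in granule-gene cells. All 4 tested globin genes were called lower, as were 15 of the 20 tested for heme and iron and 18 of the 23 tested for the red cell membrane, with none higher. Their medians were -6.58, -2.63 and -6.31. Over all 107 cells, 0 of 6, 1 of 20 and 0 of 23 genes of these lists were called lower, with medians of -0.39, -0.50 and -0.60. The gene called was Uros, uroporphyrinogen synthase of the heme pathway, at 55.1, 331, 23.6, 26.9 and 101 CPM in the 107 cells against 85.7, 549, 44.3, 56.9 and 179.6 CPM (log2 fold change -0.89 (SE 0.09), edgeR adjusted p = 0.0216).

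Hbb-bs, an adult beta globin, stood at 1.4, 75.9, 0.906, 2.97 and 53.4 CPM in granule-gene cells, 435, 13396, 34.6, 493 and 2411 CPM in Mpo-only cells and 260.4, 8836, 22.4, 341 and 3596 CPM in other cells. It fell in granule-gene cells (log2 fold change -6.64 (SE 0.39), edgeR adjusted p = 0.000585). Its residual level moved with that of the other cells of the plate: all 12 granule-gene cells of day 3 had Hbb-bs at 10 CPM or more, against 0 of 21 on day 1 and 0 of 4 on day 2. The part of reads from neighbouring wells in this level was not tested. Hba-a1, an alpha globin with a near-identical copy, stood at 0.248, 29.3, 0.181, 2.16 and 22.9 CPM against 41, 3943, 11.2, 118 and 1418 CPM (log2 fold change -6.53 (SE 0.31), edgeR adjusted p = 0.000247). Each of the 4 globins has a near-identical partner with which it may exchange reads, so the split within a pair is uncertain.

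Enzymes of heme synthesis and iron storage followed in the same direction. Alas2, the first enzyme of heme synthesis in red cells, stood at 2.64, 20.9, 0, 0.540 and 5.91 CPM against 10.4, 1729.7, 4.19, 18.5 and 212 CPM and fell (log2 fold change -4.88 (SE 0.76), edgeR adjusted p = 0.0175). Fech, ferrochelatase of the last step, stood at 51, 85.7, 77.6, 60.7 and 44 CPM against 496, 2725, 426, 649 and 1105 CPM and fell (log2 fold change -3.83 (SE 0.41), edgeR adjusted p = 0.00551). Fth1, ferritin heavy chain, stood at 443, 452, 724, 425 and 759 CPM against 1236, 2676, 1818, 1879 and 2150.0 CPM (log2 fold change -1.87 (SE 0.20), edgeR adjusted p = 0.00551). Ftl1, ferritin light chain, differed less, at 642, 1466, 778, 608 and 974 CPM against 1299, 1693, 930.1, 679.8 and 975 CPM, and missed the threshold (log2 fold change -0.40 (SE 0.17), edgeR adjusted p = 0.199).

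Genes of the red cell membrane and its control were lower as well. Car2 stood at 74.9, 44.6, 167, 11.3 and 35 CPM against 1199.9, 4169, 900.2, 1210.1 and 3020.1 CPM and fell (log2 fold change -5.37 (SE 0.80), edgeR adjusted p = 0.0157). Add2, beta adducin of the membrane skeleton, stood at 1.73, 5.02, 3.08, 4.59 and 5.44 CPM against 440.0, 588, 307, 542 and 405 CPM (log2 fold change -6.99 (SE 0.31), edgeR adjusted p = 0.000223), and Rhag, of the Rh complex, at 1.73, 5.86, 30.8, 9.17 and 9.93 CPM against 415, 961, 529, 900.3 and 1004 CPM (log2 fold change -6.61 (SE 0.63), edgeR adjusted p = 0.00346). For neither gene did the plate sums of granule-gene cells and other cells overlap. Of 16 erythroid transcription factors and the receptor, 4 were called lower and none higher. Klf1 stood at 2.56, 6.18, 6.52, 2.16 and 11.6 CPM against 435, 621, 274, 214 and 482 CPM (log2 fold change -6.34 (SE 0.40), edgeR adjusted p = 0.000631), and Gata1 at 34.2, 17.4, 47.1, 2.7 and 3.78 CPM against 381, 606, 333, 284 and 334 CPM (log2 fold change -4.87 (SE 0.68), edgeR adjusted p = 0.0135). Nfe2, which also acts in other blood lineages, stood at 269, 266, 213, 217 and 215 CPM against 114, 614, 158, 189 and 213 CPM and missed the threshold (log2 fold change 0.07 (SE 0.33), edgeR adjusted p = 0.922).

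The naming rule also gave 10 genes with the largest called decreases in granule-gene cells. They were Cda, Gm32051, Tspan8, Rnf128, Trib3, Abcg4, Pklr, Sphk1, Car1 and Gadd45g, of which Car1 is on the list of red cell membrane genes. Cda, cytidine deaminase, stood at 0.248, 0.419, 0, 0.540 and 0.946 CPM against 72.5, 118, 35.6, 84.6 and 115 CPM in other cells. Pklr, the pyruvate kinase of red cells and liver, stood at 0.330, 0.523, 1.63, 0.809 and 1.42 CPM against 151, 179, 123, 135 and 171 CPM, and Car1, a carbonic anhydrase of red cells, at 0.413, 0.733, 1.45, 0.540 and 0.473 CPM against 112, 74.3, 211, 65.3 and 159 CPM. Trib3, a stress-induced pseudokinase, stood at 0.165, 2.09, 0, 0.270 and 0.236 CPM against 15.6, 502, 7.46, 53 and 45.3 CPM. These 4 fell, and no level in granule-gene cells reached the lowest level in other cells. Over the 107 cells, the other 3 lower genes were Pfkm, Hmgb3 and Mthfd2, with log2 fold changes of -0.72, -0.59 and -0.48.

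Markers of other blood lineages were present in granule-gene cells in part. Of the megakaryocyte list, 0 of 10 tested were called higher and 2 lower, Vwf (-6.28) and Gp1ba (-4.36). Of the mast cell and basophil list, 1 of 5 tested was called higher, Mcpt8, a basophil protease, at 12.2, 175, 0, 46.4 and 12.5 CPM against 0 to 0.541 CPM (log2 fold change 10.07 (SE 2.00), edgeR adjusted p = 0.0431). Mcpt8 was at 10 CPM or more in 10 of 37 cells. A single cell at 998 CPM weighed on the control day 3 value, where the median of granule-gene cells was 0.771 CPM. Cpa3, a mast cell protease, stood at 192, 41, 317, 17.5 and 17 CPM and was at 10 CPM or more in 13 of 37 cells (log2 fold change 9.40 (SE 2.62), edgeR adjusted p = 0.0834). A single control day 3 cell held the high-affinity IgE receptor chain Ms4a2 at 1134 CPM, Mcpt8 at 998 CPM, Fcgr3 at 1380 CPM and Gata2 at 369.7 CPM.

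Of the other marker lists, Cd79b, a B cell receptor chain, was the 1 of 16 lymphoid genes that passed the filter on low counts, and in granule-gene cells it stood at 34, 57.3, 49.3, 13.2 and 74 CPM against 0 to 1.9 CPM (log2 fold change 8.49 (SE 1.84), edgeR adjusted p = 0.0435). Of 4 endothelial and stromal genes tested 2 were called higher. Pecam1, which leukocytes also carry, stood at 105, 170.1, 90.1, 37.8 and 73.5 CPM against 16.8, 0.994, 9.26, 2.32 and 1.78 CPM (log2 fold change 4.38 (SE 0.79), edgeR adjusted p = 0.0264), and Pdgfrb at 45.9, 46.4, 58.5, 83.4 and 203 CPM against 6.32, 1.4, 14, 33.9 and 10.4 CPM (log2 fold change 3.02 (SE 0.63), edgeR adjusted p = 0.0399). Of 3 hepatocyte genes tested 1 was called, Trf, the transferrin gene, at 7.51, 14.3, 7.97, 21.9 and 9.22 CPM against 0 to 0.902 CPM. The defining hepatocyte genes Apoa1 and Afp were at most 3.31 CPM on any plate in granule-gene cells, and none of the 4 dendritic cell and MHC class II genes tested was called. Cd3e had no count in the 37 cells.

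Of the cell cycle genes, those of S phase differed little, and none of 26 was called. Among 27 G2 and M phase genes 3 were called lower and none higher, against 3.83% called lower of all genes tested. Changes in this list were negative in 23 genes and positive in 4, with a median of -0.61 (-0.31 over all genes). Mki67, the Ki-67 antigen, stood at 154, 102, 100.0, 103 and 75.4 CPM against 269, 427, 188, 226 and 289.7 CPM and fell (log2 fold change -1.44 (SE 0.24), edgeR adjusted p = 0.0209). Ccna2, cyclin A2, stood at 474, 588, 327, 349.6 and 439 CPM against 765, 1148, 599.9, 416 and 663 CPM (log2 fold change -0.75 (SE 0.14), edgeR adjusted p = 0.0316). Mki67 was at 10 CPM or more in 34 of 37 granule-gene cells. Of 25 MYC and ribosome biogenesis genes, 1 was called higher and 1 lower, against 2.93% and 3.83% of all genes tested. Changes in this list were negative in 23 genes and positive in 2, with a median of -0.30. The higher gene was Myc, at 734, 519, 668, 719.7 and 639 CPM against 509.5, 243, 417, 347 and 440.2 CPM (log2 fold change 0.71 (SE 0.14), edgeR adjusted p = 0.0333), and Npm1, nucleophosmin, did not pass (log2 fold change -0.17 (SE 0.13), edgeR adjusted p = 0.468).

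Of 18 p53 target genes 4 were called lower and none higher, with a median of -1.92. Ccng1, cyclin G1, stood at 103, 322, 106, 215 and 226 CPM against 323, 719, 327, 1201 and 1126 CPM and fell (log2 fold change -1.92 (SE 0.21), edgeR adjusted p = 0.00551). Eda2r, a receptor of the tumour necrosis factor family, stood at 0, 0.419, 0, 0 and 0.236 CPM against 1.35, 21.1, 4.32, 27 and 25.4 CPM (log2 fold change -7.22 (SE 1.04), edgeR adjusted p = 0.0143). Cdkn1a, the cell cycle inhibitor p21, stood at 37.8, 138, 43.7, 58 and 25.8 CPM against 79.2, 493, 55.2, 445 and 373 CPM, lower on each plate, and missed the threshold (log2 fold change -2.06 (SE 0.52), edgeR adjusted p = 0.0667). Ifitm2 was the 1 gene called of 9 tested interferon genes, at 83.8, 100.5, 129, 174 and 96 CPM against 41.8, 19.4, 33.2, 30.6 and 11.9 CPM (log2 fold change 2.11 (SE 0.33), edgeR adjusted p = 0.0185).

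Granule-gene cells differed among themselves. Cells with 1, 2 and 3 of Elane, Prtn3 and Ctsg numbered 10, 10 and 17, and their Mpo medians were 3438, 5991 and 11828 CPM. Csf3r was at 10 CPM or more in 4 of 10, 4 of 10 and 16 of 17 cells, Ms4a3 in 2, 2 and 13, and Irf8 in 0, 4 and 12. Flt3 was at that level in 7, 7 and 6 cells and Gata2, a factor of stem, mast and basophil cells, in 8, 7 and 6. Hp, haptoglobin, was at that level in 1, 3 and 13 cells. These counts are a description of cells from shared plates and carry no test.

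Single cells of control day 3 differed widely. The cell with the highest Mpo, 27475 CPM, had Elane at 3647 CPM and Ctsg at 7094 CPM. Another with Mpo at only 62.9 CPM had Lyz2 at 6288 CPM, Mmp8 at 1324 CPM, Ly6c2 at 670.4 CPM, Irf8 at 565 CPM and Ccr2 at 427 CPM. Flt3 was at 10 CPM or more in 14 of 21 granule-gene cells of day 1, 3 of 4 of day 2 and 3 of 12 of day 3, with 0 of 7 on control day 3. Cd34 was at that level in 21 of 21, 4 of 4 and 9 of 12 cells of the same days, and S100a8 in 1 of 21, 1 of 4 and 4 of 12.

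Depth and content of the cells were compared over the 5 plates. The median share of mitochondrially encoded counts in granule-gene cells was 3.79, 2.94, 3.48, 3.68 and 5.13%, against 3.87, 3.45, 3.94, 4.67 and 5.78% in other cells. It was lower on 5 of 5 plates, with a mean difference of -0.538 percentage points (SD 0.329, n = 5 plates). The exact permutation test by sign flips gave a two-sided p = 0.0625, the smallest that 5 plates allow, or 0.25 after adjustment over 4 measures. At 300000 counts per cell, granule-gene cells had a mean of 282 more genes detected (SD 289, exact permutation p = 0.125). For the 107 cells that difference was -52.3 genes (SD 289, exact permutation p = 0.75). The median count per cell of the 107 cells was lower by 156897 on average (difference -156897, SD 159923, exact permutation p = 0.25).

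**Figure D5:**
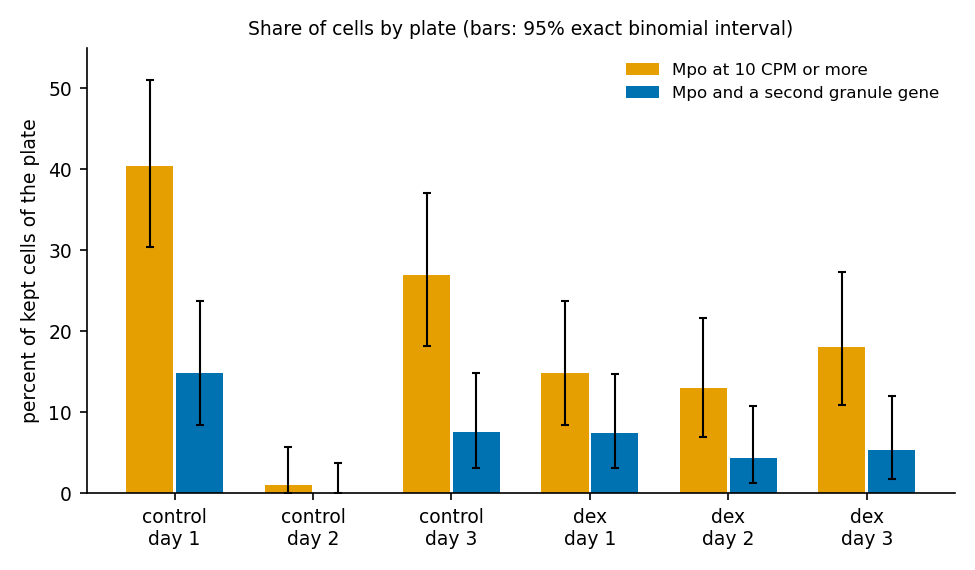
Share of kept cells of each plate, in percent, with Mpo at 10 CPM or more (orange) and with Mpo and a second granule gene (blue). Bars start at 0 and whiskers are exact 95% binomial intervals. Control day 2 has 1.04% and 0%, and control day 1 has the highest shares.

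The effect of dexamethasone on these cells was asked last. The share of cells with Mpo at 10 CPM or more differed between dexamethasone and control by -25.5, 12 and -8.80 percentage points on days 1, 2 and 3, a mean of -7.44 (SD 18.8, n = 3 days, exact two-sided sign-flip permutation p = 0.75, where 0.25 is the smallest possible). For granule-gene cells the differences were -7.45, 4.35 and -2.21 points, a mean of -1.77 (SD 5.91, exact permutation p = 0.75). Control day 2 held no granule-gene cell among 96, which allows a share of up to 3.13%. The direction was not the same on all days, and leaving out day 1 turned the mean over the 107 cells to 1.6 points.

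Within the 107 cells, edgeR called 0 of 14321 genes between dexamethasone and control, with 555 at an unadjusted p under 0.05, while DESeq2 called 187. The fit left 1 residual degree of freedom. Within granule-gene cells edgeR called 0, with 305 at an unadjusted p under 0.05. Elane was among the genes with the largest difference of the same sign on days 1 and 3, at 45.8 CPM in control and 3.10 CPM with dexamethasone on day 1, and 206 and 11.3 CPM on day 3. Dexamethasone day 2, which has no counterpart in control, had 158 CPM, within the control range. Single cells weighed on these Elane sums, at 760 CPM on control day 1, 3647 CPM on control day 3 and 2011 CPM on dexamethasone day 2. Il1rl1, the interleukin 33 receptor of mast cells and basophils, was at 25.2 and 31.8 CPM in control granule-gene cells of days 1 and 3, whereas dexamethasone days 1, 2 and 3 had 0.181, 5.40 and 1.18 CPM. It was at 10 CPM or more in 5 of 37 cells.

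The difference between Mpo cells and other cells was also compared between treatments. EdgeR called 0 of 18402 genes for this interaction, with 633 at an unadjusted p under 0.05, and DESeq2 called 90. Flt3 led the genes whose interaction had the same sign on days 1 and 3. Its log2 difference between Mpo cells and other cells was 2.28 and 0.05 on control days 1 and 3 and 6.39, 6.36 and 5.63 on dexamethasone days 1 to 3. Hdc, histidine decarboxylase of basophils and mast cells, went the other way, with 6.10 and 6.39 in control and 2.06, -1.88 and 0.27 with dexamethasone. In other cells Hdc stood at 0, 0.0468, 11.5, 775 and 39.4 CPM, so its level there moved with the treatment too. The level of Flt3 in other cells enters its differences as well, and its part was not separated. On day 1, Flt3 was at 10 CPM or more in 8 of 14 control and 6 of 7 dexamethasone granule-gene cells. The highest of these cells had 575 and 822 CPM. On day 3 it was at that level in 0 of 7 and 3 of 5 cells. Between day 3 and day 1 within the 107 cells edgeR called 0 of 14321 genes, with 1111 at an unadjusted p under 0.05, while DESeq2 called 610.

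Genes that dexamethasone induces in many cells were read in granule-gene cells as well. Of 21 glucocorticoid receptor targets tested, 3 were called higher and 3 lower against other cells. Mt1, a metallothionein, stood at 39.6, 62.8, 44.9, 41.3 and 32.6 CPM in granule-gene cells and 218, 58.7, 446, 725 and 394 CPM in other cells (log2 fold change -2.85 (SE 0.64), edgeR adjusted p = 0.0465). It was higher in the other cells of the dexamethasone plates than in those of the control plates, while granule-gene cells ranged from 32.6 to 62.8 CPM over all 5 plates. Tsc22d3, which encodes GILZ, a mediator of glucocorticoid action, stood at 53.8, 96.1, 108, 161 and 195 CPM against 19.8, 31.6, 83, 72 and 69.2 CPM and rose (log2 fold change 1.15 (SE 0.24), edgeR adjusted p = 0.0387). Its level was higher on each dexamethasone plate than on either control plate in granule-gene cells and in other cells. Anxa1, annexin A1, stood at 63.7, 2898, 63.1, 60.2 and 149 CPM against 0.0351, 0.784, 0.0194, 0.272 and 10.1 CPM (log2 fold change 8.99 (SE 1.5), edgeR adjusted p = 0.0209), and 1 cell at 13612 CPM weighed on the control day 3 value.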

How the data were processed

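Single cells of 6 plates were measured by RNA sequencing of polyadenylated RNA. The deposited values are raw counts of reads for each gene in each well, which the authors made with STAR 2.4, featureCounts and the mouse build GRCm38, per the submitters' processing notes. Not given in the sources used here are the annotation, the strand setting and the handling of reads with several positions, so near-identical or overlapping genes may exchange reads. There were 576 value columns, of which 575 could be tied to a labelled well, and the 1 left was not used. The header has 1 empty cell more than the value lines, after the name of the gene column, and this cell was left out.

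Wells with at least 50000 counts, at least 1500 detected genes and at most 20% mitochondrially encoded counts were kept (563, with 12 removed). Members had Mpo at 10 CPM or more, where CPM is the count scaled to the total of the cell. The members, the gene lists and the tests were chosen with earlier results of these data known. The index sequences of each well were read from the column names.

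Counts were summed per plate over members and over other cells, for plates with at least 3 members. EdgeR 4.0.16 (R 4.3.3) fitted the quasi-likelihood model with plate as a block, since both sums of a plate come from the same wells' run, TMM factors and the filterByExpr filter, with Benjamini-Hochberg adjustment over all genes tested and a threshold of 0.05. Standard errors are the size of the fold change over the root of F. Treatment within members used the member sums with day as a term. Named genes were the 15 largest and 10 smallest called changes with 1 sign on all plates and at least 20 CPM in the higher group, 8 and 8 for dexamethasone and for the interaction, up to 5 of each list by mean level, and the genes of the sort. A gene that this rule gave is not reported here. Other genes named from a list, and single cells, were chosen after their values were seen. Shares have exact Clopper-Pearson intervals at 95% confidence. Differences over plates or days were tested by exact two-sided sign-flip permutation. Tests were tried on simulated data. Alternatives were DESeq2 1.42.0, limma 3.58.1, other scaling, filters, thresholds and left-out plates. The index rule and the added fits of granule-gene and Mpo-only cells were chosen after seeing the data.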

Additional observations from a re-analysis of the deposited data

Results flagged for a closer look

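The share of cells with Mpo at 10 CPM or more was 12 percentage points higher with dexamethasone than in control on day 2, whereas it was lower on days 1 and 3, by differences of -25.5 and -8.80 points. The day 2 difference stood out because its sign was opposite to that of the other days. With 1 plate per day and treatment, the difference between the days was not tested. Control day 2 was the plate without a cell at 1000 CPM of Mpo.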

How the results depend on the processing

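With Mpo at 10 CPM or more, 44 genes were called. The count was 1605 with DESeq2, 403 with limma on mean CPM per cell, 469 for cells at 50 CPM or more, 9 at 1 CPM or more, 922 under the index rule, 932 for granule-gene cells and 0 for Mpo-only cells. Without the replicate block by plate it was 76, and leaving out each plate in turn gave 13 to 52. For granule-gene cells, added fits gave 3168 with DESeq2, 920 with relative log expression factors and 1389 without the replicate block, and 228, 661, 368, 257 and 169 without control day 1, control day 3 and dexamethasone days 1, 2 and 3. No named gene that these fits tested changed sign. They tested 19 for the members, except 16 in granule-gene cells and 11 in Mpo-only cells, and 108 to 111 for granule-gene cells. Without dexamethasone day 3, 48 of 108 of the latter lost their call, and without dexamethasone day 2, 47 of 111. The interaction called 90 genes with DESeq2, dexamethasone within members 187, and day 3 against day 1 called 610 with DESeq2 and 55 with limma, each against 0 with edgeR. The mean share difference turned to 1.6 points without day 1 (range -17.2 to 1.6 over the left-out days) and to 4.08 points for cells with any Mpo count. The difference in genes detected, -152 in the members, was 19.8, 82.5 and 284.7 for cells at 50 CPM, granule-gene cells and the index rule. At 300000 counts per cell it was -52.3 in the members and 200, 281.9 and 324.3 in those groups. Fits of treatment or day without control day 1, control day 3, dexamethasone day 1 or day 3 left no residual degrees of freedom and were not possible. Counting depth was high, and the number of plates and the few granule-gene cells limit precision.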
